A study of Mus musculus with 23 samples.

Results

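The 8 genes described here encode the MHC class II presentation machinery of the mouse. They are the class II chains H2-Aa, H2-Ab1 and H2-Eb1, the invariant chain Cd74, the peptide-loading chains H2-DMa, H2-DMb1 and H2-DMb2, and the transactivator Ciita. They were taken by symbol from the 47643 genes of the expression table, with no use of their values, and each symbol matched 1 gene. The question asked of them was which cells supplied class II transcripts and Ciita in B16F10 tumors, and whether editing of Nr2f6 in the tumor cells went with a change in them.

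Class II molecules are pairs of an α and a β chain that present peptides, mostly from proteins taken up from outside the cell, to CD4+ T cells. The invariant chain occupies the groove on the way to the endosome, cathepsin S cuts it down to a short peptide in myeloid and B cells, and the H2-DM pair exchanges that peptide for others. CIITA does not bind DNA itself. It docks on RFX, CREB and NF-Y proteins bound to the X and Y boxes of class II promoters, and it is the limiting factor for class II transcription. Dendritic cells, macrophages and B cells express class II, and other cells, melanoma cells among them, can be brought to express it by interferon-γ, with IRF1 among the factors that act on Ciita. C57BL/6 mice, the strain in which B16F10 arose, carry a disabled H2-Ea gene, so that the H2-Eb1 product has no α chain partner at the cell surface.

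B16F10 is a transplantable mouse melanoma line. RNA was sequenced from bulk tumors, from tumor cells purified from tumors by depletion of stromal cells on magnetic beads after collagenase D digestion (sorted tumor cells), and from cultured cells. In each sample type there were 2 control (WT) libraries and 2 libraries for each of the single guide RNAs sg492 and sg495 (NR2F6 KO); edited cells had received Cy3-labeled guide RNA with Cas9 protein and had been sorted for Cy3, so that each guide stands for a sorted population. The tumors grew under the skin of young male C57BL/6 mice with an intact immune system, and the labels give no genotype for the host. A further 5 libraries were labeled B16F10, WT and either IgG_Control (2) or anti-PD1 (3), with no sample type named. The labels do not say whether libraries of a group came from separate animals or cultures, so p-values measure the spread between libraries, which may be technical.

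Values are TPM, a transcript level scaled for gene length and library total, and the reads behind a value are unknown; the labels give a range of 23 to 31 megareads over the libraries. A gene counted as called if limma, fitted to log2(TPM + 1), gave a p-value under 0.05 after Benjamini-Hochberg adjustment together with a difference of 1.5-fold or more on that scale, which understates the change of genes near or below 1 TPM. The targeted gene served as a check of the labels. Nr2f6 was 25.8 and 25.2 TPM in control, 22.3 and 23.3 TPM in sg492 and 17.2 and 15.8 TPM in sg495 bulk tumors. In sorted cells the controls had 20.3 and 17.7 TPM and sg495 had 10.6 and 12.2 TPM, but in the libraries labeled sg492 it was 19.8 and 25.7 TPM, not lower than control. The control bulk tumors also stood apart from each other, with summed leukocyte markers of 181 to 264 TPM against 417 to 483 TPM in sg495 bulk tumors.

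In the GRCm38 build, Ciita lies on chromosome 16 at 10480059 to 10528418 on the plus strand, and Cd74, like it, lies outside the MHC. The other 6 genes lie within the MHC on chromosome 17. H2-DMa (34119541 to 34139101), H2-DMb2 (34143307 to 34151555), H2-DMb1 (34153072 to 34160230), H2-Ab1 (34257689 to 34269419) and H2-Eb1 (34305867 to 34316674) are on the plus strand, and H2-Aa (34282744 to 34287823) is on the minus strand. All are protein-coding. H2-DMb1 and H2-DMb2 are near copies: 254 of the 1604 possible 75-base reads of H2-DMb1 also occur in H2-DMb2, so reads could be divided between them. The other 6 genes shared no 75-base stretch with another gene.

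Class II promoters are known for a common element on which CIITA acts, so the RefSeq promoter windows of the GRCm38.p6 assembly (250 bases before to 50 after a start) were searched for 2 short motifs. The first was CTNNNAAC, the core of the X box, and the second was GATTGG, the inverted CCAAT core of the Y box. Both were chosen after these sequences had been seen. Windows were at hand for 5 of the 8 genes. The pair, with 20 to 30 bases between the motifs on the gene's strand, was present in 4 of the 5 (H2-Aa, H2-Eb1, H2-DMb1 and H2-DMb2), with 27, 26, 27 and 27 bases between. Among all 32851 promoter windows, 27 (0.0822%) held the pair on the gene's strand and 51 (0.155%) on either strand. CTNNNAAC alone was in 41.1% and GATTGG alone in 16.1% of the windows on either strand. Neither window of H2-DMa held the pair. The stretches are printed 5′ to 3′ on the gene's strand with both motifs in capitals and 15 bases on either side.
H2-Aa (chr17:34287852-34287922, minus strand): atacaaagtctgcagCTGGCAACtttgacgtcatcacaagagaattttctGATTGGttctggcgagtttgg
H2-Eb1 (chr17:34305758-34305827, plus strand): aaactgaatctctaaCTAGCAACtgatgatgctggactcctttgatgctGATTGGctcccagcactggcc
H2-DMb1 (chr17:34153079-34153149, plus strand): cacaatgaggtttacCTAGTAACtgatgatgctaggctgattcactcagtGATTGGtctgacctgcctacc
H2-DMb2 (chr17:34145108-34145178, plus strand): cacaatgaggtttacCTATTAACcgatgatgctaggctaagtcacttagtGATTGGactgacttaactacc
The spacing is nearly the same in the 4 promoters, and the H2-DMb1 and H2-DMb2 stretches are alike over most of their length. A match describes the letters in the window and does not show that a factor was bound.

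Ciita, the transactivator, was listed at 0 in all 6 cultured libraries. In sorted tumor cells it was 0.04 TPM in 1 control library and 0 in the other, 0.07 and 0.13 TPM in the pair labeled sg492, and 1.76 and 1.10 TPM in sg495. In bulk tumors it was 2.57 and 0.97 TPM in control, 5.60 and 3.84 TPM in sg492 and 5.16 and 6.36 TPM in sg495. The gene was thus near or at 0 in the tumor cells of the control and sg492 groups, in culture and after sorting, and reached 1 TPM in sorted cells with sg495 only. It was highest in the IgG control libraries, at 35.3 and 63.9 TPM, and in the anti-PD1 libraries, at 21.4, 29.6 and 53.1 TPM.

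H2-Aa, the α chain of the I-A molecule, had the same order of sample types at higher levels. It was listed at 0 in all 6 cultured libraries. In sorted tumor cells the controls had 0.98 and 0.10 TPM, the libraries labeled sg492 had 0.83 and 1.00 TPM and the sg495 libraries 53.65 and 53.84 TPM. In bulk tumors it was 182 and 81.7 TPM in control, 235 and 248 TPM in sg492 and 303 and 346 TPM in sg495. Both sg495 libraries were above both control libraries in each of the 2 tumor sample types. The β chain partner, H2-Ab1, was likewise listed at 0 in every cultured library. Its level in sorted tumor cells was 0.50 TPM in 1 control library and 0 in the other, 0.28 and 0.45 TPM in the pair labeled sg492, and 24.1 and 28.2 TPM in sg495. Bulk tumors had 100.3 and 53.3 TPM of it in control, 141 and 154 TPM in sg492 and 209 and 218 TPM in sg495. H2-Eb1, the β chain of the I-E molecule, was 0.38 and 0.14 TPM in control and 23.0 and 29.7 TPM in sg495 sorted tumor cells, and it was listed at 0 in 5 of the 6 cultured libraries, with 0.06 TPM in the sixth. The 3 chains were thus high and low in the same groups of sorted and cultured libraries.

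Cd74, the invariant chain, was the most abundant of the 8 genes in bulk tumors and in sg495 sorted tumor cells. Cultured cells had no more than 0.46 TPM of it in any library. It was 2.18 and 1.39 TPM in control, 1.77 and 1.82 TPM in sorted libraries labeled sg492, and 92.4 and 92.9 TPM in sg495 sorted tumor cells. In bulk tumors Cd74 was 281 and 140.5 TPM in control, 371 and 432 TPM in sg492 and 521 and 606 TPM in sg495. Cd74 was the only gene of the chain and invariant chain group above 1 TPM in the mean of the control sorted cells.

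The H2-DM genes differed among themselves. H2-DMb1 was the one class II gene with a clear level in culture, at 3.01 and 3.95 TPM in control, 2.40 and 3.66 TPM in sg492 and 1.88 and 1.76 TPM in sg495. Its level in sorted tumor cells was 4.61 and 3.52 TPM in control, 4.84 and 2.63 TPM for the label sg492, and 31.3 and 41.1 TPM in sg495. Control sorted cells and control cultured cells overlapped in it. H2-DMa, the α chain of the pair, was 0.23 to 0.78 TPM in cultured cells, 0.56 and 0.31 TPM in control and 14.96 and 13.08 TPM in sg495 sorted tumor cells. H2-DMb2, the near copy of H2-DMb1, was 1.04 to 3.39 TPM over the 6 bulk tumors, no more than 0.12 TPM in culture, and in sorted sg495 cells 0.61 TPM in 1 library and 0 in the other. Given the shared sequence, the division of reads between H2-DMb1 and H2-DMb2 remains uncertain.

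**Figure D1:**
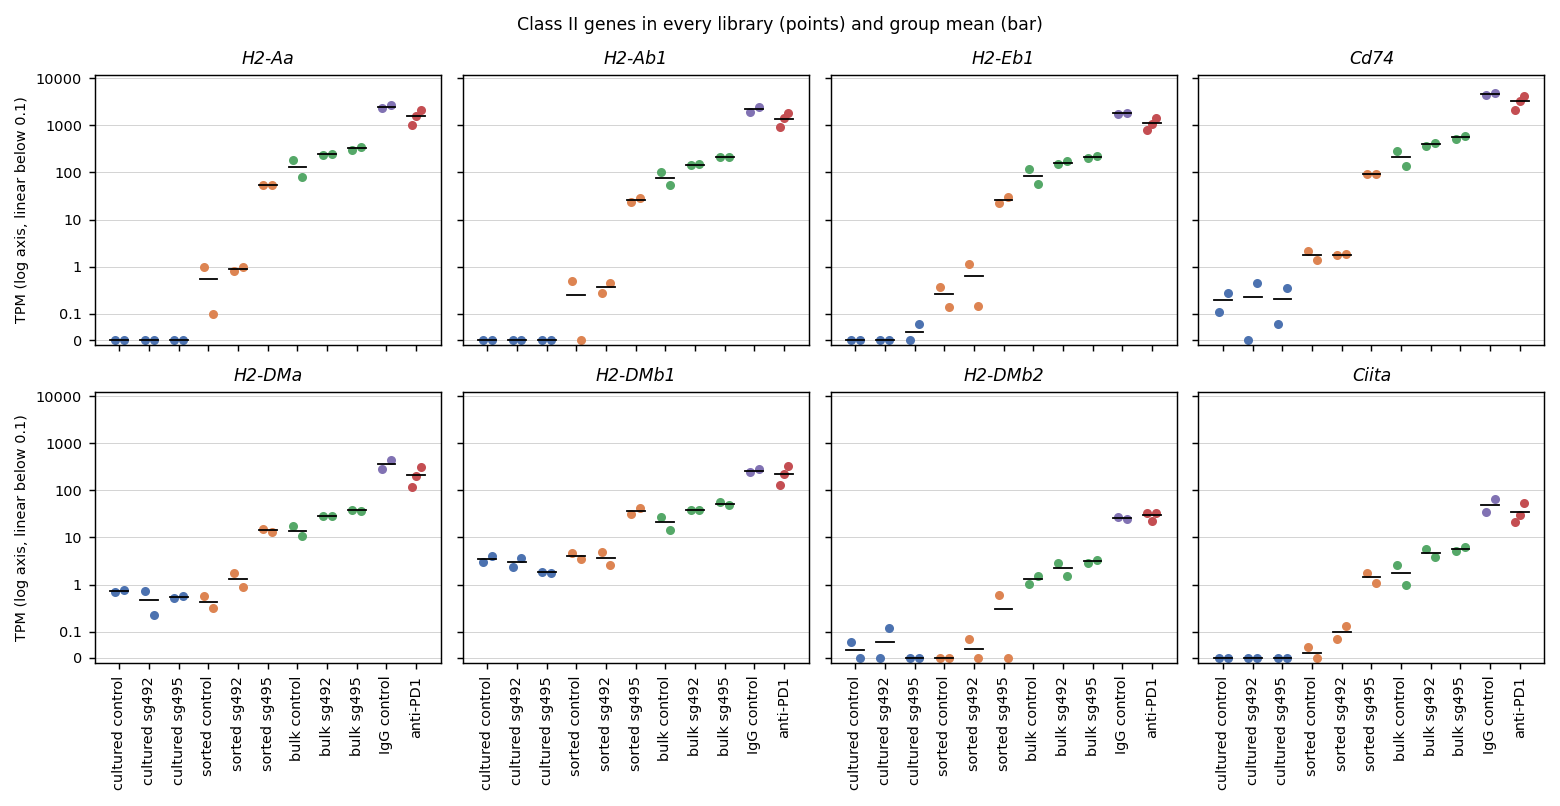
TPM of the 8 class II genes (log axis, linear below 0.1 TPM) in every library of the 11 groups; points are libraries, bars are group means, and colors mark sample types. H2-Aa, H2-Ab1 and Ciita sit at 0 in all cultured libraries, and in sorted tumor cells the sg495 libraries of H2-Aa, at 53.65 and 53.84 TPM, stand far above the control and sg492 libraries.

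The order of levels was the same in the sg492 and sg495 bulk tumors: Cd74, H2-Aa, H2-Eb1, H2-Ab1, H2-DMb1, H2-DMa, Ciita and H2-DMb2. In both groups the only neighbors whose libraries overlapped were H2-Eb1 and H2-Ab1. In control bulk tumors the order was that too, but 5 of the 7 pairs of neighbors overlapped. Sorted tumor cells with sg495 departed from it in 1 place, since H2-DMb1 stood next after H2-Aa, above H2-Eb1 and H2-Ab1. Its TPM was 0.583 and 0.763 of that of H2-Aa in the 2 sorted sg495 libraries, against 0.139 to 0.184 in the 6 bulk tumors and 0.104 to 0.153 in the IgG and anti-PD1 libraries. The sorted sg495 values lay above all of these, while the bulk tumors overlapped with the IgG and anti-PD1 libraries. They lay below those of the other sorted libraries, in which H2-Aa was at most 1.00 TPM. There the ratio was 4.70 in control library 1 and 5.83 and 2.63 in the pair labeled sg492. The ratio of H2-Ab1 to H2-Aa was 0.449 and 0.525 in sorted sg495 cells, 0.551 to 0.691 in bulk tumors and 0.849 to 0.908 in the IgG and anti-PD1 libraries. That of Cd74 to H2-Aa overlapped between sorted sg495 cells (1.72 and 1.73) and bulk tumors (1.54 to 1.76). These ratios were chosen after the values had been seen and carry no test.

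In sorted tumor cells, 6 of the 8 genes could be tested for sg495 against control, and these 6 were called higher, with log2 fold changes of 2.87 to 5.21. Over all 12899 genes tested, 0.899% were called and 0.605% were called higher. H2-Aa differed by 5.21 ± 0.29 on the log2(TPM + 1) scale (SE, n = 2 and 2, limma adjusted p = 0.00445), Cd74 by 5.09 ± 0.17 (limma adjusted p = 0.000857) and H2-Ab1 by 4.47 ± 0.27 (limma adjusted p = 0.00487). H2-Eb1 was higher by 4.43 ± 0.34, H2-DMa by 3.39 ± 0.27 and H2-DMb1 by 2.87 ± 0.27, with limma adjusted p-values of 0.00964, 0.00969 and 0.0144. Only Cd74 and H2-DMb1 averaged 1 TPM or more in the control libraries; the other 4 passed the expression filter through the sg495 libraries, so that their passing already implied a difference, and the count of 6 is a description. Ciita and H2-DMb2 fell under the filter. Tested without it, Ciita was higher by 1.24 in sg495 (limma adjusted p = 0.0951), and in a fit of all 18 libraries the same difference had a limma adjusted p of 0.0121. The latter fit pools the spread with that of the cultured libraries, in which Ciita had none.

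Calls in sorted tumor cells were lost under several alternatives, and the differences changed in size but stayed positive in the 6 genes. With the expression filter removed, 1 gene was called (Cd74, limma adjusted p = 0.0316), and the other 5 had limma adjusted p-values of 0.0521 to 0.078. With sg495 library 1 or sg495 library 2 left out, 1 gene was called, and with control library 2 left out, 3 were. The log2 difference of H2-Aa stayed between 4.79 and 6.86 over all alternatives, with limma adjusted p-values up to 0.11, that of H2-Ab1 between 4.17 and 6.74, with values up to 0.11, and that of Cd74 between 4.88 and 5.65, with limma adjusted p-values up to 0.0432. Without the 2 libraries labeled sg492 in the fit, 6 genes were called.

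The sorted libraries labeled sg492 did not differ detectably from control in any of the 6 genes tested, where 0.0388% of all genes were called. The differences ran from -0.13 for H2-DMb1 to 0.67 for H2-DMa, with limma adjusted p-values of 0.697 to 0.994, and 1 of the 6 (H2-DMa) had an unadjusted p below 0.05. Compared directly with them, sorted sg495 cells were higher in 6 of the 6 genes tested (0.589% of all genes were called and 0.395% higher). The difference was 5.07 ± 0.17 for Cd74 (limma adjusted p = 0.000439) and 2.72 ± 0.27 for H2-DMa (limma adjusted p = 0.0201). H2-Aa, H2-Ab1, H2-Eb1 and H2-DMa passed the expression filter through the sg495 libraries, and their passing already implied a difference. The count of 6 is therefore a description. That count was 0 to 2 when 1 library was left out. Since Nr2f6 was not lower in the libraries labeled sg492, no direction was drawn from their label.

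**Figure D2:**
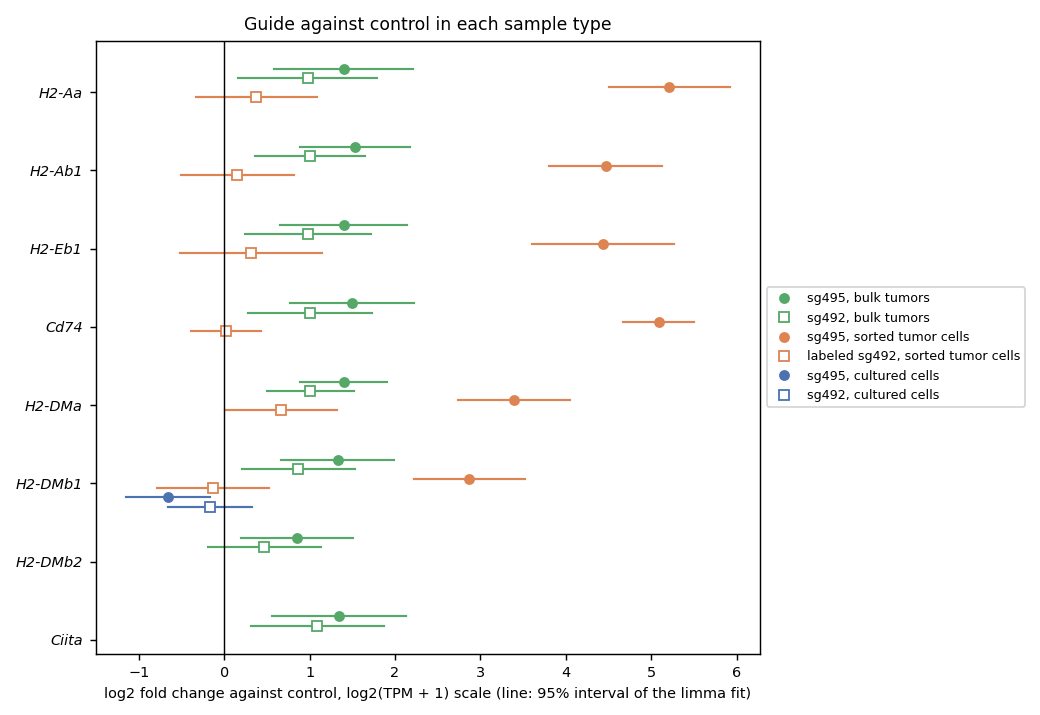
Log2 fold change of each class II gene against control of the same sample type, on the log2(TPM + 1) scale, with the 95% interval of the limma fit; green is bulk tumors, orange sorted tumor cells and blue cultured cells, filled circles are sg495 and open squares sg492, and genes under the expression filter have no point. In sorted tumor cells sg495 lies at 2.87 to 5.21 in the genes tested, and in bulk tumors at 0.85 to 1.53.

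The purity of the sorted cells bears on which cells supplied these transcripts. Ptprc, the pan-leukocyte antigen CD45, was 0.15 and 0.02 TPM in the sorted sg495 libraries against 18.2 and 26.2 TPM in sg495 bulk tumors. Ctss, which encodes cathepsin S, was 1.12 and 1.16 TPM against 303 and 272 TPM. The dendritic cell markers Itgax, Flt3, Xcr1, Clec9a and Cd209a and the B cell markers Ms4a1 and Cd22 were listed at 0 in both sorted sg495 libraries. The macrophage marker Adgre1 was 0.02 and 0 TPM and Csf1r 0 and 0.02 TPM in them. Cd79a, another B cell marker, was 3.05 and 2.38 TPM in them, and 2.26 and 2.67 TPM in sorted control cells. Apart from Cd79a and Ctss, the markers just named were at most 0.15 TPM in the sorted libraries with high class II. They are a selection, and others of the same lists stood higher. C1qb, a macrophage marker, was 0.30 and 0.31 TPM in sorted sg495 cells and 0 and 0.07 TPM in sorted control cells. Values for Cd68 and Itgb2 follow below.

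Summed over the whole lists, 8 leukocyte markers came to 10.6 and 11.4 TPM at the extremes of sorted control cells and to 13.9 and 14.2 TPM in sorted sg495 cells. The 8 macrophage markers came to 3.96 and 5.44 TPM in control and to 7.55 and 12.8 TPM in sg495. Cd68, a lysosomal protein that is not limited to macrophages, made up 6.76 and 12.09 TPM of the latter. The 8 dendritic cell markers came to 5.03 to 5.95 TPM in control and 4.46 to 6.56 TPM in sg495, most of it Zbtb46 and Batf3. The 6 B cell markers came to 2.56 to 3.19 TPM in control and 2.61 to 3.09 TPM in sg495, most of it Cd79a. None of the 7 leukocyte, macrophage, dendritic and B cell markers that could be tested was called for sg495 in sorted cells. The melanocyte marker lists were of like size in control (14641 to 15320 TPM) and sg495 (14472 to 17057 TPM) sorted cells.

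Set against bulk tumors of the same guide, the mean level in sorted sg495 cells was 16.6% for H2-Aa, 16.4% for Cd74, 12.3% for H2-Ab1, 12.2% for H2-Eb1, 37.6% for H2-DMa, 69.8% for H2-DMb1 and 24.8% for Ciita. The same shares in control were 0.410% for H2-Aa, 0.326% for H2-Ab1, 0.302% for H2-Eb1, 0.848% for Cd74, 3.13% for H2-DMa, 19.3% for H2-DMb1 and 1.13% for Ciita. For comparison, Ctss stood at 0.397% and Ptprc at 0.383% in sg495, and the macrophage markers had a median of 0.141% and the leukocyte markers of 1.06%. Single markers of these lists stood higher, Itgb2 at 23.1%, above H2-Aa, and Cd68 at 11.7%, as did Zbtb46 at 91.1% and Batf3 at 27.1% among dendritic cell markers and Cd79a at 156%, Pax5 at 50% and Cd79b at 14.7% among B cell markers. The B cell markers with a share had a median of 32.3% in sg495, above H2-Aa, and of 22.6% in control. Their summed level was low in sg495 bulk tumors too, at 3.89 to 4.10 TPM. In control Itgb2 was at 38.8% and Cd68 at 8.65%. The melanocyte markers had a median of 97.2% in sg495 and 95.5% in control. In control, Ctss stood at 0.225%, close to the shares of the chains, and in sg495 the chains lay far above Ctss in the same libraries. TPM are relative to each library's total, so these shares compare levels and not molecules per tumor.

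**Figure D3:**
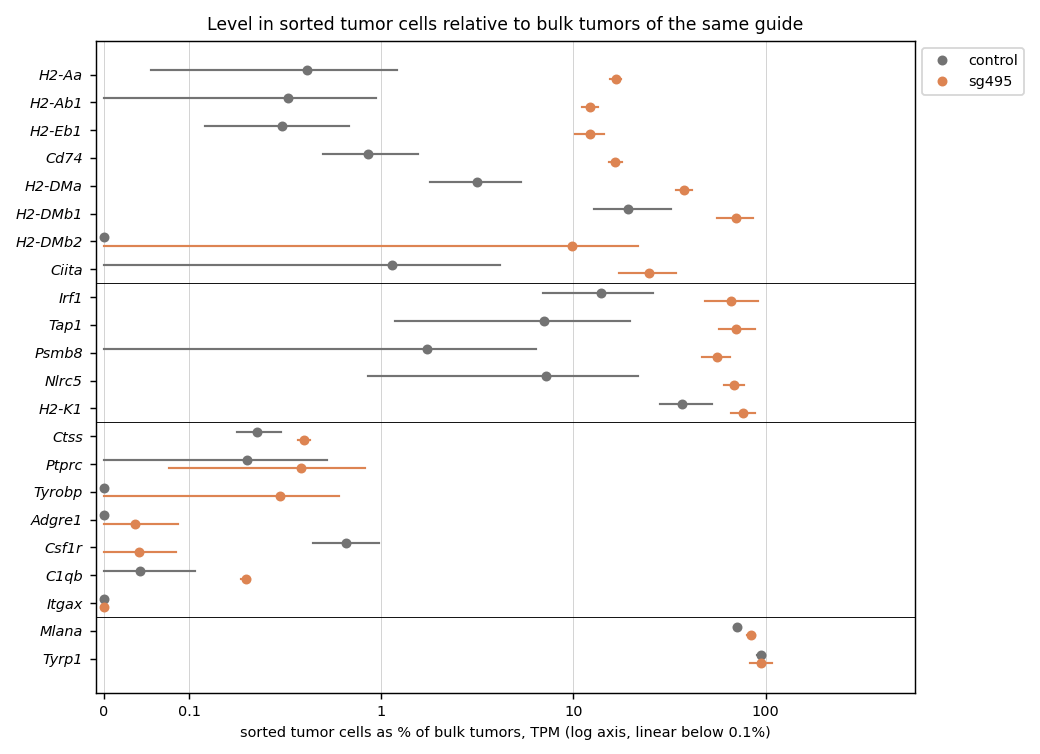
Level in sorted tumor cells as a percentage of that in bulk tumors of the same guide (log axis, linear below 0.1%). The class II genes are drawn with a selection of interferon-related, class I, immune cell and melanocyte genes. Points are ratios of group means and lines run from the lowest to the highest of the library pairs. The markers Itgb2, Cd68, Zbtb46, Batf3, Cd79a, Cd79b and Pax5, at 11.7% or more in sg495, are not drawn. In sg495, H2-Aa is at 16.6% and Ctss at 0.397%, whereas in control both lie below 0.5%.

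The same contrast appeared in the ratio of H2-Aa to Ctss within a library. It was 0.699 and 0.982 in control bulk tumors, 0.877 and 1.01 in sg492 and 1.00 and 1.27 in sg495 bulk tumors. It was 0.930 and 0.976 in the IgG control and 0.720 to 0.980 in the anti-PD1 libraries. In the sorted sg495 libraries it was 47.9 and 46.4. The 11 tumor and antibody libraries thus held both genes at nearly equal TPM, and the sorted sg495 cells did not. The gene Ctss was picked for this ratio after the values had been seen.

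**Figure D4:**
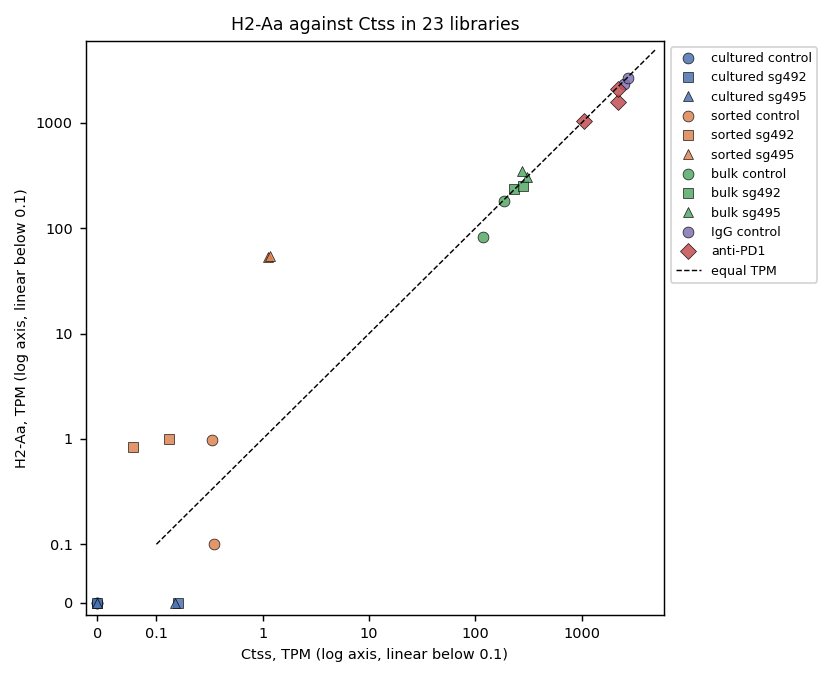
TPM of H2-Aa (vertical) against TPM of Ctss (horizontal) in all 23 libraries, both on log axes that are linear below 0.1 TPM, with symbols for guide or antibody, colors for sample type and a dashed line at equal TPM. Bulk, IgG and anti-PD1 libraries lie along the line, and the 2 sorted sg495 libraries, with 1.12 and 1.16 TPM of Ctss, lie far above it.

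In bulk tumors, none of the 8 genes was called for sg495 against control, although each of the 8 was higher in both sg495 libraries than in both controls. Over all 13639 genes tested, 0.0293% were called, and 31.6% lay above control in the same non-overlapping way. The log2 fold changes ran from 0.85 for H2-DMb2 to 1.53 for H2-Ab1, with a median of 1.40 against 0.06 over all genes. Each of the 8 had an unadjusted p below 0.05, as had 2135 of all genes tested, and the limma adjusted p-values ran from 0.0865 to 0.206. H2-Ab1 was 1.53 ± 0.26 higher (SE, n = 2 and 2, limma adjusted p = 0.0985), Ciita 1.34 ± 0.32 (limma adjusted p = 0.127) and H2-DMa 1.40 ± 0.21 (limma adjusted p = 0.0865).

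For sg492 in bulk tumors, 0% of all genes were called and none of the 8 genes, while 7 of the 8 genes and 1132 of all genes had an unadjusted p below 0.05. The 8 genes were again higher in both edited libraries than in both controls (31.1% of all genes were), by a median of 0.99 on the log2 scale, against 0.06 over all genes. Ciita was higher by 1.09 ± 0.32 (limma adjusted p = 0.5) and H2-Aa by 0.98 ± 0.34 (limma adjusted p = 0.525). The guides did not differ detectably from each other: sg495 minus sg492 was 0.25 for Ciita (limma adjusted p = 0.862) and 0.53 for H2-Ab1, the largest of the 8 (95% interval -0.11 to 1.17, limma adjusted p = 0.574), with 0 of 8 genes called or below an unadjusted p of 0.05 and 0% of all genes called. Both guides were compared with the same 2 control tumors.

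These bulk results turned on 1 control tumor. Control library 1 had 182 TPM of H2-Aa and control library 2 had 81.7 TPM. Without control library 1, H2-Aa was higher by 1.97 for sg495 and by 1.55 for sg492 on the log2 scale. Without control library 2, the differences were 0.83 and 0.41. In a fit of all 18 libraries, 7 of the 7 genes tested were called for sg495, where 395 of all 13152 genes were called. None of the 7 was called for sg492 in that fit. It pools the spread over all sample types, and H2-Aa, H2-Ab1 and Ciita had no spread in the cultured libraries. The calls of that fit are therefore no separate support for a difference in bulk tumors.

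Markers of several other cell types also had higher values in edited bulk tumors. For sg495 against control, 8 of 8 leukocyte markers were higher, with a median log2 fold change of 1.01, and 8 of 8 macrophage markers, with a median of 0.90. The same held for 7 of 7 fibroblast markers (median 0.89), 6 of the 6 dendritic cell markers tested (0.84), 6 of 6 T cell markers (0.60) and 5 of 5 endothelial markers (0.19), whereas the 6 melanocyte markers had a median of 0.01. None was called, and 63.1% of all genes tested were higher in sg495. The summed leukocyte markers were 181 to 264 TPM in control, 318 to 359 TPM in sg492 and 417 to 483 TPM in sg495 bulk tumors, and the summed macrophage markers 242 to 369, 392 to 478 and 538 to 562 TPM. The summed B cell markers overlapped, at 3.45 to 4.31 TPM in control and 3.89 to 4.10 TPM in sg495. In a bulk sample, more cells of a type and more RNA per cell cannot be told apart, and the part of these markers in the class II values was not tested.

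In cultured cells only H2-DMb1 passed the filter. It was lower with sg495 by 0.66 ± 0.20 (SE, n = 2 and 2, limma adjusted p = 0.0933) and lower with sg492 by 0.16 ± 0.20 (limma adjusted p = 0.806), and was not called for either guide, where 2.77% and 0.05% of all genes were called. The guides differed by 0.50 (limma adjusted p = 0.178), and 2.61% of all genes were called between them. Removal of the filter brought no call among Cd74, H2-DMa, H2-DMb2 and H2-Eb1, with limma adjusted p-values of 0.655 to 1 for sg495.

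A fit of all 18 libraries tested whether the sg495 difference itself depended on the sample type. Between sorted and cultured cells the difference of differences was called for 6 of the 7 genes tested, with 2.51% of all genes called and 1.86% called higher. For H2-DMb1, which both sample types expressed, the sg495 difference was 3.53 ± 0.40 larger in sorted cells (limma adjusted p = 0.000794), with values of 2.87 in sorted and -0.66 in cultured cells. For H2-Aa the difference of differences was 5.21 ± 0.43 (limma adjusted p = 8.13e-05), but the cultured libraries were all listed at 0. For Ciita it was 1.24 ± 0.37 (limma adjusted p = 0.0906). Under each of 14 alternatives the 6 genes stayed called. Of these, H2-Ab1 was also listed at 0 in culture, and H2-Eb1, Cd74 and H2-DMa were under 1 TPM in every cultured library. Apart from H2-DMb1, the values thus largely repeat the difference in sorted cells, and the count of 6 is a description.

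Between bulk tumors and sorted cells, the sg495 difference on the log2(TPM + 1) scale was smaller in bulk for 5 of the 7 genes tested. It was smaller for H2-Aa by 3.81 ± 0.43, Cd74 by 3.59 ± 0.39, H2-Eb1 by 3.03 ± 0.43, H2-Ab1 by 2.93 ± 0.34 and H2-DMa by 1.99 ± 0.33. The limma adjusted p-values were 0.00386, 0.00386, 0.022, 0.00386 and 0.0448. Over all 13152 genes, 0.122% were called and 0.0532%, or 7 genes, in that direction. In TPM itself, the rise of the mean from control to sg495 was larger in bulk for each of the 5 genes. Mean H2-Aa went from 132 to 324 TPM in bulk tumors and from 0.54 to 53.7 TPM in sorted cells. H2-DMb1, at 1.54 ± 0.40 smaller, was not called (limma adjusted p = 0.105), nor was Ciita, whose difference was 0.11 ± 0.37 larger in bulk (limma adjusted p = 0.932). The count was 3 when any 1 of control sorted library 2, sg495 sorted library 2 or sg495 bulk library 2 was left out and 2 with a pseudocount of 0.1, with H2-Aa and H2-Ab1 called in all 14 alternatives.

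Bulk tumors exceeded sorted cells in the class II genes in both groups. In control, 7 of the 7 genes tested were called higher in bulk, where 12.7% of all genes were called and 8.27% higher. Ciita passed the filter through the bulk tumors, so that its passing already implied a difference. In control and in sg495 alike, its values and its place in the count are a description. H2-Aa was higher by 6.38 ± 0.30 (limma adjusted p = 1.23e-08) and Ciita by 1.38 ± 0.26 (limma adjusted p = 0.00191). With quantile normalization the difference of Ciita was 0.66 and was not called (limma adjusted p = 0.125). In sg495, 6 of 7 were called (14.6% of all genes, 10.1% higher), with H2-Aa higher by 2.57 ± 0.30 (limma adjusted p = 3.54e-05) and Ciita by 1.48 ± 0.26 (limma adjusted p = 0.000963). H2-DMb1 was the exception, at 0.52 ± 0.29 (limma adjusted p = 0.188). In H2-Aa, H2-Ab1, H2-Eb1, Cd74 and H2-DMa the level relative to all transcripts was thus higher in bulk tumors than in sorted cells of both groups.

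Sorted and cultured control cells were close. Of the 7 genes tested, 1 was called higher in sorted cells, Cd74, by 1.21 ± 0.27 (limma adjusted p = 0.00339), where 20.2% of all genes were called and 12.4% higher. H2-Aa differed by 0.56 ± 0.30 (limma adjusted p = 0.155). With sg495, 7 of 7 were called higher in sorted than in cultured cells (28% of all genes, 16.3% higher), Ciita by 1.27 ± 0.26 (limma adjusted p = 0.00142) and H2-DMb1 by 3.71 ± 0.29 (limma adjusted p = 6.03e-07). Apart from H2-DMb1, the genes tested were under 1 TPM in every cultured library. They passed the filter through tumor libraries, Ciita through the bulk tumors, so both counts are a description.

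Among the genes known to act upstream of Ciita, Irf1, an interferon-induced factor that acts on a Ciita promoter, rose with sg495 in sorted cells. It was 6.4 and 2.91 TPM in control and 73.3 and 53.7 TPM in sg495, a log2 difference of 3.57 ± 0.36 (limma adjusted p = 0.0167). The receptor chains Ifngr1 and Ifngr2 and the kinases Jak1 and Jak2 were not called, with differences of -0.35 to 0.15. Ifng itself was 0.06 and 0.07 TPM in sorted control, 0 in both sorted sg495 libraries, and 0.34 and 0.18 TPM in control and 1.11 and 0.93 TPM in sg495 bulk tumors. In cultured cells the mean TPM of Irf1 was lower in sg495 than in control, and Irf1 was not called (limma adjusted p = 0.0819).

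The partners on which CIITA docks were present in all sample types, and none was called between guides or control within a sample type. Rfx5 was 6.63 and 7.35 TPM in control and 8.23 and 12.04 TPM in sg495 sorted cells, and 4.91 and 4.37 TPM in control cultured cells. The 7 genes of this set (Rfx5, Rfxap, Rfxank, Creb1, Nfya, Nfyb and Nfyc) had a median log2 difference of -0.02 for sg495 in sorted cells and 0.11 in bulk tumors, and 0 of 7 were called in either. Between sample types 3 of them were called: Rfx5 was higher in sorted than in cultured sg495 cells by 1.22 ± 0.21 (limma adjusted p = 0.000356) and lower in sg495 bulk tumors than in sorted cells, Nfyb was lower in control bulk tumors than in sorted cells, and Rfxap was lower in sorted than in cultured cells of both groups. Among the genes that prepare peptides for class II, 0 of the 4 tested were called in sorted sg495 cells. Ifi30, a lysosomal thiol reductase, was lower by 0.52 ± 0.08 (limma adjusted p = 0.0469), under the fold threshold, and Ctsl, Ctsb and Lgmn differed by -0.20 to 0.33. The remaining class II genes were sparse: H2-Oa and H2-Ob, whose product restrains H2-DM, were at most 0.23 TPM in any sorted sg495 library, and H2-Ea-ps was listed at 0 in all 23 libraries.

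Class I genes were also higher in sorted sg495 cells. All 9 of H2-K1, H2-D1, B2m, Tap1, Tap2, Tapbp, Psmb8, Psmb9 and Nlrc5 were called higher for sg495, where 0.605% of all genes were, with a median log2 difference of 3.25. Of these, Psmb8 and Nlrc5 averaged under 1 TPM in control, so that the sg495 libraries helped them pass the filter. In cultured cells the direction was not shared: of the 4 class I genes tested, 1 was called lower with sg495 and none higher. That gene was H2-K1, at 32.2 and 30.4 TPM in control and 8.55 and 6.69 TPM in sg495 cultured cells (-1.91 ± 0.15, limma adjusted p = 0.00192). Nlrc5, the class I counterpart of Ciita, was 1.68 and 0.15 TPM in control and 23.4 and 21.5 TPM in sg495 sorted cells (3.74 ± 0.42, limma adjusted p = 0.0223). Its TPM was 13.3 and 19.5 times that of Ciita in those libraries, against 4.59 to 8.01 times in bulk tumors and 0.762 to 1.39 times in the IgG and anti-PD1 libraries. In sorted cells H2-K1, a classical class I heavy chain, was 71.7 and 70.5 TPM in control and 304 and 369 TPM in sg495. Its TPM was 5.66 and 6.85 times that of H2-Aa in the sorted sg495 libraries, against 1.21 to 1.66 times in bulk tumors. In the other sorted libraries H2-Aa was at most 1.00 TPM. There the ratio was higher, at 73.2 in control library 1 and 104 and 49.4 in the pair labeled sg492. Sorted sg495 cells had a median of 70.0% of the bulk level over the 9 class I genes, against 16.6% for H2-Aa.

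The IgG and anti-PD1 libraries held the highest class II levels of the series. H2-Aa was 2307 and 2658 TPM with IgG and 1040, 1569 and 2092 TPM with anti-PD1, Cd74 was 4482 and 4963 TPM against 2171, 3343 and 4242 TPM, and H2-DMb2, at most 3.39 TPM elsewhere, was 27.0 and 24.5 TPM against 33.5, 22.8 and 32.3 TPM. The 8 genes together took 11102 and 12715 TPM with IgG and 5224 to 10354 with anti-PD1, against 359 to 1488 over the bulk tumors. Cell type markers in these libraries differed as well. Ptprc was 86.7 to 273 TPM, the summed leukocyte markers were 2579 to 6094 TPM, and the summed melanocyte markers were 1632 to 4908 TPM against 14472 to 17688 TPM over the other 18 libraries. The source of the RNA is not named in the labels, so these levels were not compared with the other groups by a test.

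Within this set, no gene was called for anti-PD1 against IgG (0% of 13418 genes; 964 at an unadjusted p below 0.05), nor any of the 8. The differences were negative in 7 of the 8, from -0.33 for H2-DMb1 to -0.84 ± 0.42 for H2-DMa (SE, n = 3 and 2, limma adjusted p = 0.608), and 0.17 ± 0.25 for H2-DMb2 (limma adjusted p = 0.806). H2-Eb1 (-0.76 ± 0.27, limma adjusted p = 0.608) was the one with an unadjusted p below 0.05. In 4 of the 8 genes all 3 anti-PD1 libraries lay below both IgG libraries, as did 15.8% of all genes. The leukocyte markers had a median of -0.52 and the melanocyte markers of 0.83 in the same comparison, and their part in the class II values was not tested.

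The genes whose log2(TPM + 1) followed the mean of H2-Aa, H2-Ab1, H2-Eb1 and Cd74 most closely differed between sample types. Over the 6 bulk tumors they were Enpp4, Ly6e, Tmsb4x, Cd300lh and Fcgr4 (Pearson r of 0.996 to 0.998 across libraries). Over the 6 sorted libraries they included Apol9b, Sp110, H2-T22 and Parp10 (r of 0.995 to 0.997), and over all 18 libraries Mndal, Sp110, Sp100, Oasl2 and Trim12a (r of 0.986 to 0.993). Fcgr4, an Fc receptor of myeloid cells, was 19.3 and 8.03 TPM in control and 31.3 and 38.5 TPM in sg495 bulk tumors, but only 3.25 and 1.46 TPM in sorted sg495 cells. Apol9b was 1.10 and 0.79 TPM in control and 17.6 and 19.4 TPM in sg495 sorted cells. Among the 8 genes, Ciita ranked 277th of 13639 genes in bulk tumors (r = 0.955) and 61st of 13152 over the 18 libraries (r = 0.961), and H2-DMb2 ranked 3200th in bulk tumors (r = 0.651). The libraries within such a set share their guides and cell composition, and in sorted cells the 2 sg495 libraries set the pattern, so these values are a description of likeness.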

How the data were processed

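The authors trimmed single-end reads of 75 bases with Cutadapt 2.3, aligned them with STAR 2.7.0d to mm10 with Ensembl 84 annotation and quantified genes with RSEM 1.3.1, per the labels and methods. They deposited 1 table of TPM, length- and library-scaled expression, for 47643 genes in 23 libraries. Their own test used estimated counts, which were not used here. Depth per library is unknown from TPM, so no counting interval is given. No 2 libraries held identical values, and 0 columns were without a sample.

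Values were log2(TPM + 1). Genes averaging 1 TPM or more over the 6 libraries of a sample type were fitted with 1 mean per group (limma 3.58.1 in R 4.3.3, eBayes with trend, 2-sided, Benjamini-Hochberg over all genes tested), and contrasts between sample types came from a fit of 18 libraries. IgG and anti-PD1 libraries had a fit of their own. A call needed an adjusted p below 0.05 and a fold of at least 1.5. With 2 libraries a group, an exact permutation test cannot reach 0.05. The procedure was tested on simulated data. The members, gene lists and tests were chosen with earlier results of these data known. Genes named were the 8 members, Nr2f6, genes of the hand-written pathway and marker lists, and the 5 non-members with the highest Pearson r to the mean of H2-Aa, H2-Ab1, H2-Eb1 and Cd74. Results for some of the listed genes are not reported here. Positions came from GENCODE M21 and promoters from RefSeq on GRCm38.p6.

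Same-numbered libraries did not deviate together (r of -0.126 to 0.133), so numbers were used as a block only as an alternative. Other alternatives were a pseudocount of 0.1, no filter, scaling by median of ratios, a filter at a mean of 5 TPM, quantile normalization, a fit of all 18 libraries and each library left out in turn; the fit without the sorted libraries labeled sg492 and the crossed block were chosen after seeing the data. Plots used Python 3.11.15, pandas 2.3.3 and matplotlib 3.10.9.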

Additional observations from a re-analysis of the deposited data

Results flagged for a closer look

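Differences between sample types in the sg495 effect, tested as interactions in the limma fit of 18 libraries, drew attention in 2 sets. Between sorted and cultured cells the sg495 difference on the log2(TPM + 1) scale was larger in sorted cells by 5.21 for H2-Aa, 4.47 for H2-Ab1, 4.39 for H2-Eb1, 5.08 for Cd74, 3.55 for H2-DMa and 3.53 for H2-DMb1; H2-DMb1 is the only one of these with more than 1 TPM in cultured cells. Between bulk tumors and sorted cells, bulk minus sorted was -3.81 for H2-Aa, -2.93 for H2-Ab1, -3.03 for H2-Eb1, -3.59 for Cd74 and -1.99 for H2-DMa. In these genes the bulk tumors carried a level in control that the sorted cells did not. Groups of 2 or 3 libraries were too small for a test of single outlying libraries.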

How the results depend on the processing

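Counts of class II genes called changed as follows, and the cause was not tested. A pseudocount of 0.1 gave 3 for sorted sg495 against sg492, 3 for sorted against cultured control cells and 2 for the interaction of bulk with sorted; no filter gave 1 for sg495 against control and 3 for sg495 against sg492 in sorted cells; the fit of all 18 libraries gave 7 for sg495 in bulk tumors. Leaving out 1 library gave 0 to 6 for each guide in bulk tumors, 1 to 6 for sg495 against control and 0 to 2 for sg495 against sg492 in sorted cells, 1 to 2 for sorted against cultured control cells and 3 to 5 for the interaction of bulk with sorted. Signs turned only in values that were not called. With quantile normalization Cd74 for sg492 in sorted cells became -0.052 and H2-DMb1 between sorted and cultured control cells -0.0093, and with the pseudocount of 0.1 Ciita in the interaction of bulk with sorted became -1.87. With 1 library left out, the sg492 difference in sorted cells ran from -0.19 to 0.23 for Cd74, -0.050 to 0.80 for H2-Aa, -0.13 to 0.76 for H2-Eb1, -0.14 to 0.45 for H2-Ab1 and -0.47 to 0.21 for H2-DMb1. In the same way H2-DMb1 ran from -0.39 to 0.065 for sg492 in culture and from -0.64 to 0.024 for anti-PD1, and Ciita from -0.32 to 0.53 in the interaction of bulk with sorted. Of all other values of class II genes, 975 kept direction and side of the threshold, 58 lost and 24 gained a call.

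Labels give shared replicate numbers, but the numbers did not pair the libraries. With the replicate block 1 class II gene was called for anti-PD1 (H2-DMa, -1.19, limma adjusted p = 0.0142) and 514 genes in all, against 0 without it, and the block moved the other counts of class II genes by less than 1.5 times. Crossing the numbers of the sg492 bulk tumors in the block, added because their deviations ran opposite to control (r = -0.126), gave 0 genes called in all 3 bulk comparisons. Counts over all genes moved by over 1.5 times as well. In the fit of all 18 libraries they went from 4 to 395 for sg495 and from 0 to 58 for sg495 against sg492 in bulk tumors, from 116 to 399, 5 to 14 and 76 to 353 for sg495, sg492 and sg495 against sg492 in sorted cells, and from 6 to 2 for sg492 in culture. Without a filter they went from 4 to 0 in bulk tumors, from 116 to 3, 5 to 0 and 76 to 20 in sorted cells, from 332 to 219 for sg495 in culture, from 330 to 211 for the interaction of sorted with cultured and from 16 to 130 for that of bulk with sorted. A filter at 5 TPM gave 2 for sg495 in bulk tumors and 994 in place of 1675 and 1147 in place of 1922 for bulk against sorted in control and sg495. The block gave 0 for sg495 in bulk, sg492 in sorted and sg492 in cultured cells, and a pseudocount of 0.1 gave 1 for sg492 in bulk and 50 for sg495 against sg492 in sorted cells. Transcripts under 1 TPM, Ciita in sorted cells among them, rest on few reads, and no smallest detectable level can be given from TPM.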
